A study of Mus musculus with 8 samples.

Results

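Akr1b7 is an aldo-keto reductase of the adrenal cortex, and it is described here with its relatives Akr1b8, Akr1b3 and Akr1a1 in mouse adrenal glands. These 4 genes, of 18846 gene symbols in all, were chosen by name, with their expression levels by genotype and treatment already known. Their differences between the genotypes, and the share of the library taken by Akr1b7, which belongs to how the set was defined, are therefore given as a description, with no test. ACTH and interaction tests are given for the 4 genes, but on values that were not unseen. Their p-values are to be read with that limit. The estimated read counts of each symbol's transcripts were summed in each library, and all 4 genes were counted in all 8 libraries and passed the filter on low counts.

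The libraries came from 8 adrenal glands of mice with the strain label 129SVEV, 1 gland and 1 animal each. Of the 4 animals labelled Siah1a-/-, a knockout of the E3 ubiquitin ligase Siah1a, 2 had received adrenocorticotropic hormone (ACTH) intraperitoneally at 100 µg/kg for 1 hour and 2 were untreated, and the 4 wild-type animals were divided in the same way. Each of these 4 groups of 2 held 1 animal labelled female and 1 labelled male. No vehicle injection is among the labels, so ACTH and the injection cannot be told apart, and neither the design of the deleted allele nor the animals' age is given in the sources used here. In whole glands, fewer cells of a type and less RNA per cell cannot be told apart.

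Aldo-keto reductases are soluble enzymes that use NADPH to reduce aldehydes and ketones to alcohols. In the adrenal cortex, side-chain cleavage of cholesterol releases isocaproaldehyde together with pregnenolone, and Akr1b7 reduces this aldehyde. Akr1b7 also has prostaglandin F synthase activity, and it is known as a gene of the zona fasciculata whose level is maintained by ACTH through cyclic AMP. Among its relatives, Akr1b3 is the mouse aldose reductase, which turns glucose into sorbitol in the polyol pathway, Akr1b8 reduces aldehydes and retinal, and Akr1a1 is the aldehyde reductase that acts on glucuronate on the way to ascorbate.

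Total estimated counts ranged from 8020111 to 29568950 per library, and levels are given as CPM, counts scaled to library size with edgeR's TMM factors. All 8 markers of the adrenal cortex and all 6 of the medulla were above 0 in every library. Siah1a was still counted in the knockout, at 17.4 to 25.2 CPM against 26.1 to 33.1 CPM in wild type. In wild type, 1 library of each treatment stood apart. The male-labelled untreated one had Xist at 388 CPM and the Y-linked gene Ddx3y at 3.06 CPM, against that label, and 6 kidney markers with a summed level of 1798 CPM, against at most 7.88 CPM elsewhere. The female-labelled ACTH-treated one had 6 liver markers with a summed level of 60457 CPM, against at most 671 CPM elsewhere. Values that rest on these 2 libraries are given with and without them.

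Akr1b7, Akr1b3 and Akr1b8 lie in the same cluster on chromosome 6 in the GRCm38 (mm10) build, and each has 10 exons and 951 coding bases. Akr1b3 spans 34303930 to 34317489 on the minus strand, Akr1b8 34354146 to 34368461 on the plus strand and Akr1b7 34412362 to 34423137 on the plus strand. Akr1b10, the gene annotated between Akr1b8 and Akr1b7, spans 34384247 to 34396949 on the plus strand. Akr1a1 lies apart, on chromosome 4 from 116636510 to 116651674 on the minus strand, with 9 exons and 978 coding bases. The coding sequence of Akr1b7 is 89.3% identical to that of Akr1b10, 84.9% to that of Akr1b8, 74.0% to that of Akr1b3 and 62.8% to that of Akr1a1. Because reads of such relatives could be confused in counting, the stretch of 75 bases, the length of 1 read, that holds the longest run shared by Akr1b7 and Akr1b10 (59 bases) is shown for the cluster. It covers coding bases 239 to 313 in exon 3, at chr6:34416122-34416196 (plus strand) in Akr1b7, chr6:34388780-34388854 (plus) in Akr1b10, chr6:34357465-34357539 (plus) in Akr1b8 and chr6:34311960-34312034 (minus) in Akr1b3. Capitals mark bases that differ from Akr1b7.
Akr1b7: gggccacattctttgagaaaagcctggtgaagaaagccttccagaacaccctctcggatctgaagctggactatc
Akr1b10: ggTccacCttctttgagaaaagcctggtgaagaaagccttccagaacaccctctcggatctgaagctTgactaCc
Akr1b8: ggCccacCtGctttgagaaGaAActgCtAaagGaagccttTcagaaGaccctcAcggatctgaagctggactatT
Akr1b3: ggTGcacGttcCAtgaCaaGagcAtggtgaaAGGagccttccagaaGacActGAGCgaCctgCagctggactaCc
Akr1b10 differs from Akr1b7 at 4 of the 75 bases, Akr1b8 at 13 and Akr1b3 at 20. Over the whole transcript, none of the 1207 windows of 75 bases in Akr1b7 was shared exactly with any of these genes (0 of 1207). Akr1b8 and Akr1b10 share 6 such windows, in a run of 80 bases, so counts of these 2 genes are uncertain to that extent. The deposited counts were exactly whole in all 8 libraries for Akr1b7, Akr1b8 and Akr1a1, and in 0 of 8 for Akr1b3.

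The 220 bases that lie 250 to 31 bases before the annotated start are shown for Akr1b7 and its neighbours Akr1b10 and Akr1b8. RefSeq promoter entries of the GRCm38.p6 build matched 3 of the 4 members, Akr1b7, Akr1b8 and Akr1a1, and Akr1b3 was not among them. The Akr1a1 window, on the minus strand of chromosome 4, is not shown. The 3 windows shown are on the plus strand, at chr6:34412112-34412331 for Akr1b7, chr6:34383997-34384216 for Akr1b10 and chr6:34353896-34354115 for Akr1b8. Capitals mark matches to AAGGTCA on either strand, the half-site that steroidogenic factor 1 (Nr5a1) recognises, and to the palindrome that nuclear factor I proteins recognise, TGGC and GCCA with any 5 bases between them.
Akr1b7: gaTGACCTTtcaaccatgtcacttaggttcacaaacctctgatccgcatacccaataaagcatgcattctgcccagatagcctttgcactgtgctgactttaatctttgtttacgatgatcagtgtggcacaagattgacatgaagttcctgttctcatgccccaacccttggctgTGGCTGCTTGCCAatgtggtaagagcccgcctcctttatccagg
Akr1b10: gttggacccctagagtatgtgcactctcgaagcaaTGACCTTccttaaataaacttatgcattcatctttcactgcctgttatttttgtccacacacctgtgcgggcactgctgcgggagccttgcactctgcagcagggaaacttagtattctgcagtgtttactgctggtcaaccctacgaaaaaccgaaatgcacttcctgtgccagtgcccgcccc
Akr1b8: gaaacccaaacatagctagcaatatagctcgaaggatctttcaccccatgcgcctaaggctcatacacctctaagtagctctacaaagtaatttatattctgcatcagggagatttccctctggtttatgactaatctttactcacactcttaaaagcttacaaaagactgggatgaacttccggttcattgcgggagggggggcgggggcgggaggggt
The Akr1b7 window holds AAGGTCA on the minus strand, 248 to 242 bases before the start, and the nuclear factor I palindrome 74 to 62 bases before it. The Akr1b10 window holds AAGGTCA on the minus strand, 215 to 209 bases before the start, and neither motif is in the Akr1b8 window. Of all 27025 promoter windows of this length, 3.66% hold AAGGTCA and 0.603% hold the palindrome. The cyclic AMP response element TGACGTCA, held by 1.16% of windows, is in none of the 3. CCAAT, held by 31.6% of windows, is in the Akr1b7 window 199 to 195 and 64 to 60 bases before the start, and the second of these overlaps the palindrome. These are matches of letters and not measured binding sites, and their part in the levels of these genes was not tested.

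Akr1b7, the isocaproaldehyde reductase, was higher in every Siah1a-/- gland than in any wild-type gland. In the ACTH-treated Siah1a-/- libraries it stood at 10679.6 CPM (labelled female) and 27580 CPM (labelled male), and in the untreated Siah1a-/- libraries at 12801 and 20315 CPM, in the same order of labels. In the ACTH-treated wild-type libraries it stood at 4809.8 CPM (labelled female) and 5826 CPM (labelled male), and in the untreated wild-type libraries at 6552 and 8848 CPM. The lowest Siah1a-/- library thus lay above the highest wild-type library, which is the male-labelled untreated wild-type library. The mean was 17844 ± 7695 CPM in Siah1a-/- and 6509 ± 1716 CPM in wild type (SD, n = 4 each), a ratio of 2.74. In the fit of all 8 libraries the log2 fold change was 1.40 (SE 0.24).

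These genotype values chose the gene and are read no further than that. Over the whole table, 0.026% of the 15361 genes tested passed between the genotypes at an adjusted p under 0.05 in edgeR, 0.00651% higher and 0.0195% lower in Siah1a-/-. Of all genes tested, 4.21% lay higher in all 4 Siah1a-/- libraries than in all 4 wild-type libraries, and 4.71% lay lower in all 4. Of the 4 members, Akr1b7 was the only one whose genotypes did not overlap. A higher genotype log2 fold change than that of Akr1b7 was fitted for 580 of 15361 genes, which only describes a value already known when the gene was chosen. Leaving out the wild-type libraries with kidney and liver transcripts gave a log2 fold change of 1.41, and leaving out single libraries gave 1.14 to 1.53. The lowest of these was without the male-labelled ACTH-treated Siah1a-/- library, which holds the highest Akr1b7 level.

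The size of the difference varied between pairs of animals that shared treatment and sex label. The Siah1a-/- library held 4.73 times the Akr1b7 level of its wild-type counterpart in the ACTH-treated pair labelled male and 2.22 times in the ACTH-treated pair labelled female. The ratio was 2.30 in the untreated pair labelled male, whose wild-type library goes against its sex label, and 1.95 in the untreated pair labelled female. Between the group means, the ratio was 3.60 after ACTH (19130 ± 11950 against 5318 ± 718 CPM, SD, n = 2 each) and 2.15 without it (16558 ± 5313 against 7700 ± 1624 CPM). The spread between the 2 ACTH-treated Siah1a-/- glands was the widest of the 4 groups, with an SD of 62.5% of the mean.

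**Figure D1:**
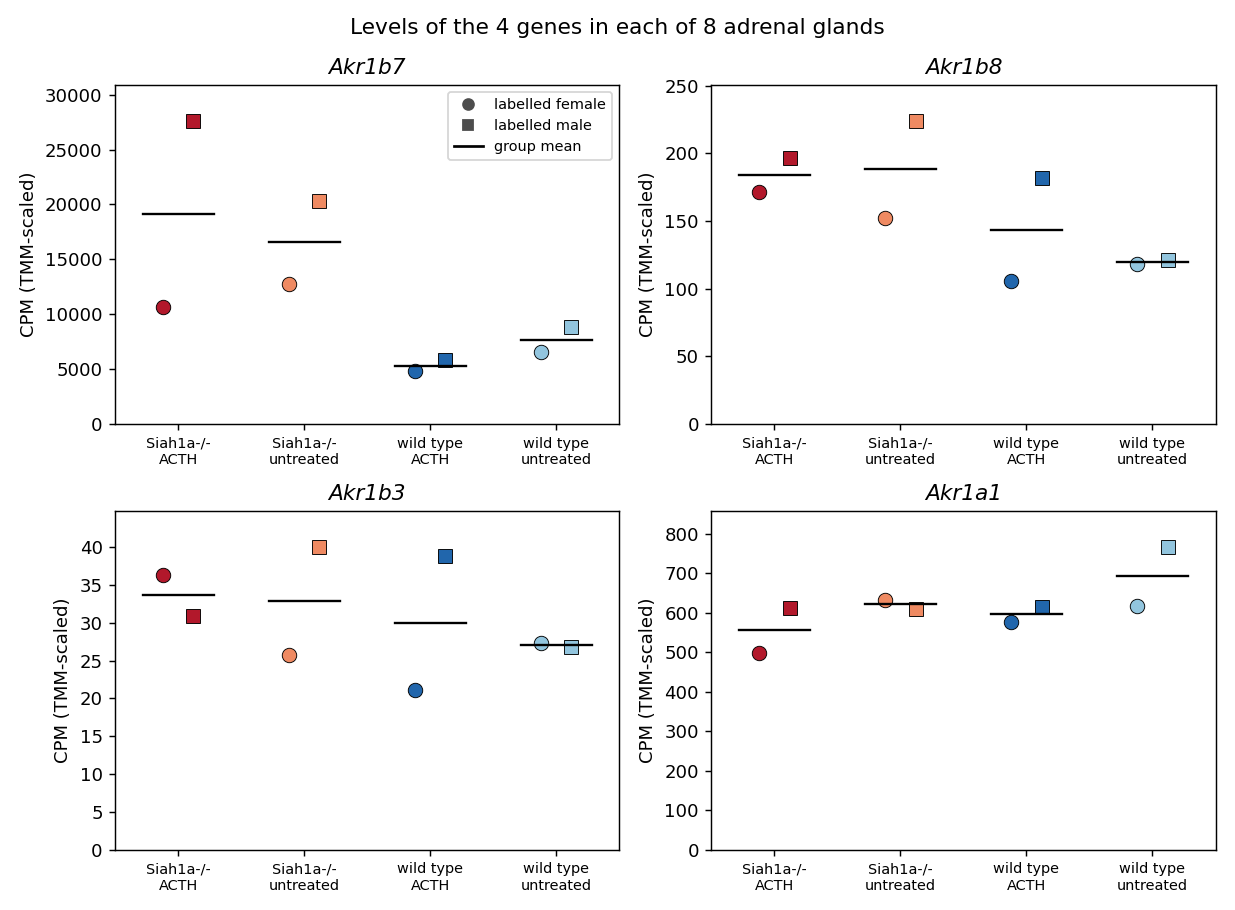
Scaled CPM of Akr1b7, Akr1b8, Akr1b3 and Akr1a1 in the 8 libraries, by group from left to right (Siah1a-/- with ACTH, Siah1a-/- untreated, wild type with ACTH, wild type untreated), with 1 point per animal, circles for the female and squares for the male label. Akr1b7 lies at 10679.6 CPM or more in all Siah1a-/- libraries and at 8848 CPM or less in all wild-type libraries, and the genotypes overlap for the other 3 genes.

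Akr1b7 took a large part of the library in these glands. Its share of all estimated counts was 1.06% (labelled female) and 2.71% (labelled male) in the ACTH-treated Siah1a-/- libraries and 1.32% and 2.01% in the untreated Siah1a-/- libraries. In the ACTH-treated wild-type libraries it was 0.426% (labelled female) and 0.592% (labelled male), and in the untreated wild-type libraries 0.683% and 0.938%. The highest share had an exact (Clopper-Pearson) 95% interval of 2.70% to 2.72% and the lowest one of 0.423% to 0.428%, so counting error, which is all these intervals cover, was small beside the spread between animals. Ranked by counts among all genes of its library, Akr1b7 was at rank 1 in 2 Siah1a-/- libraries, both labelled male, and at rank 2 or 3 in the other 2. In untreated wild type it held rank 3 (labelled male) and rank 6 (labelled female). In ACTH-treated wild type it held rank 7 (labelled male) and rank 10 (labelled female). Rank 3 and the highest wild-type share, 0.938%, belong to the library that holds kidney transcripts. Rank 10 and the lowest share, 0.426%, belong to the library that holds liver transcripts, where Alb took 3.02% of the counts. The remaining wild-type shares were 0.592% and 0.683%. Leaving Akr1b7 out of the library totals left its genotype log2 fold change at 1.40.

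**Figure D2:**
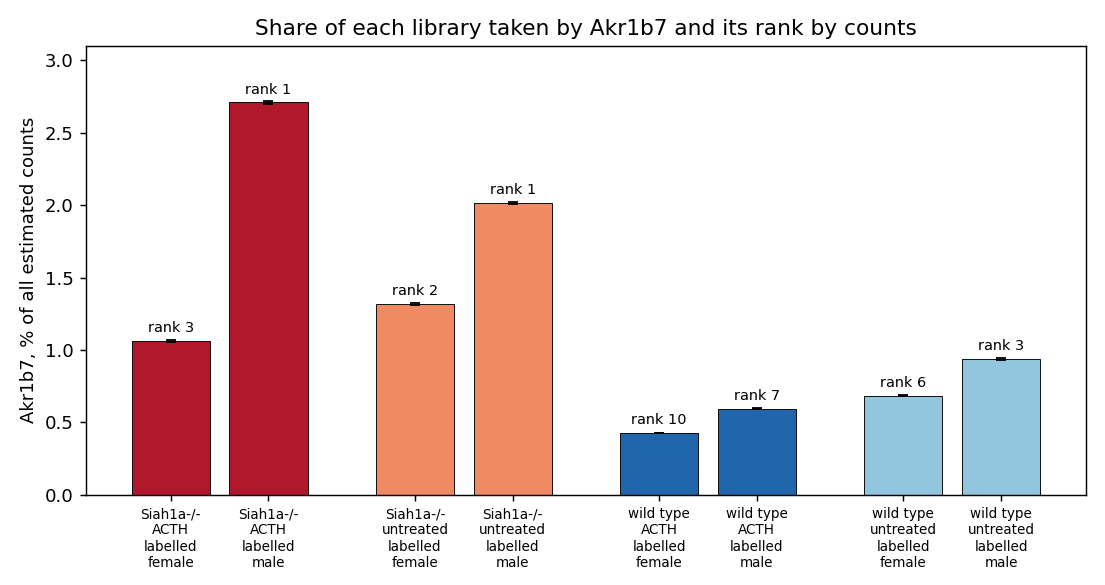
Percent of each library's estimated counts taken by Akr1b7, 1 bar per library with its exact 95% interval for counting error, by group from left to right as in the labels under the axis. The 4 Siah1a-/- libraries lie between 1.06% and 2.71% and the 4 wild-type libraries between 0.426% and 0.938%. The lowest wild-type value is of the library that holds liver transcripts and the highest of the one that holds kidney transcripts.

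After 1 hour, Akr1b7 had no detectable difference between ACTH-treated and untreated glands. It averaged 12224 ± 10553 CPM in the ACTH-treated and 12129 ± 6037 CPM in the untreated libraries (SD, n = 4 each), a ratio of 1.01. The log2 fold change adjusted for genotype and sex label was -0.19 (SE 0.23, edgeR quasi-likelihood test, adjusted p = 0.940). Over the whole table, 0.0195% of the 15361 genes passed this test, 3 genes, and 6.11% had an unadjusted p under 0.05. Of the 4 members 0 passed, 0 had an unadjusted p under 0.05, and 0 passed in DESeq2 or limma-voom. The share of the library was 1.20 ± 1.04% after ACTH and 1.24 ± 0.579% without it (SD, n = 4 each), a difference of -0.0408 percentage points, given as a description.

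The direction of the ACTH difference was not the same in all animals. The ACTH-treated library held 1.36 times the Akr1b7 level of the untreated one in the Siah1a-/- pair labelled male and 0.834 times in the Siah1a-/- pair labelled female. In wild type the ratio was 0.658 in the pair labelled male, whose untreated library holds kidney transcripts and goes against its label, and 0.734 in the pair labelled female, whose ACTH-treated library holds liver transcripts. The 2 ACTH-treated wild-type libraries lay below both untreated ones, and the Siah1a-/- groups overlapped. Akr1a1 separated in the same way in wild type (ratio of means 0.861). The share of all genes that separate so, with 2 libraries per group, was not counted. The test of whether the ACTH difference itself differed between genotypes gave a log2 value of 0.65 (SE 0.48), which did not pass (edgeR, adjusted p = 1). In that test 0% of the 15361 genes passed and 1.84% had an unadjusted p under 0.05, while DESeq2 called 8 genes and limma-voom 0. None of the 4 members (0 of 4) had an unadjusted p under 0.05 in edgeR, and 0 passed in DESeq2 or limma-voom. The value for Akr1b7 depended on single libraries. It was 0.14 without the male-labelled ACTH-treated Siah1a-/- library, 0.38 without the male-labelled ACTH-treated wild-type library and 1.05 without the female-labelled ACTH-treated Siah1a-/- library. It was 1.27 without the wild-type libraries that hold kidney and liver transcripts.

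Akr1b7 was lower in the library labelled female than in the library labelled male in all 4 groups, a comparison added after the values were seen. The female over male ratio was 0.387 in ACTH-treated and 0.630 in untreated Siah1a-/- glands, and 0.826 in ACTH-treated and 0.740 in untreated wild-type glands. The mean was 8711 ± 3674 CPM in the libraries labelled female and 15642 ± 10114 CPM in those labelled male (SD, n = 4 each). The log2 fold change was -0.71 (SE 0.23), which did not pass over all genes (edgeR, unadjusted p = 0.0170, adjusted p = 1). In this comparison 0.026% of the 15361 genes passed and 3.11% had an unadjusted p under 0.05, and 4.93% were lower in the library labelled female in all 4 groups. The log2 fold change was -0.45 without the male-labelled ACTH-treated Siah1a-/- library, and -0.70 without the male-labelled untreated wild-type library, whose transcripts go against that label.

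Akr1b8, the nearest member to Akr1b7 in coding sequence, was present at a much lower level. It stood at 171 CPM (labelled female) and 196 CPM (labelled male) in the ACTH-treated and 152 and 224 CPM in the untreated Siah1a-/- libraries. In wild type it stood at 106 CPM (labelled female) and 182 CPM (labelled male) after ACTH and at 118 and 121 CPM without it. The genotypes overlapped through the male-labelled ACTH-treated wild-type library. The means were 186 ± 30.9 CPM in Siah1a-/- and 132 ± 33.9 CPM in wild type (SD, n = 4 each), a ratio of 1.41, with a log2 fold change of 0.50 (SE 0.16). This value was 0.32 without the wild-type libraries that hold kidney and liver transcripts. In pairs matched by label, the ratio of Siah1a-/- to wild type ran from 1.08 to 1.85. The highest ratio was in the untreated pair labelled male, whose wild-type library goes against its sex label. After ACTH the log2 fold change was 0.10 (SE 0.16, edgeR, adjusted p = 0.955), with 164 ± 40.0 CPM in treated and 154 ± 49.0 CPM in untreated libraries. Like Akr1b7, Akr1b8 was lower in the library labelled female in all 4 groups, as were 4.93% of all genes, at ratios of 0.582 to 0.978. The log2 fold change was -0.40 (SE 0.16, edgeR, unadjusted p = 0.0383, adjusted p = 1), in a comparison added after the values were seen. The ratio of 0.978 is of untreated wild type, whose male-labelled library goes against its label. Without that library the log2 fold change was -0.51.

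Akr1b3, the aldose reductase, was the least abundant member. It stood at 36.2 CPM (labelled female) and 30.9 CPM (labelled male) in the ACTH-treated and 25.7 and 40.0 CPM in the untreated Siah1a-/- libraries. In wild type it stood at 21.2 CPM (labelled female) and 38.7 CPM (labelled male) after ACTH and at 27.3 and 26.8 CPM without it. High and low libraries occurred in both genotypes and both treatments. The means were 33.2 ± 6.25 CPM in Siah1a-/- and 28.5 ± 7.37 CPM in wild type (SD, n = 4 each), a log2 fold change of 0.23 (SE 0.24), which was 0.02 without the 2 wild-type libraries. The ACTH difference was 0.09 (SE 0.24, log2, edgeR, adjusted p = 0.980).

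Akr1a1, the aldehyde reductase of the glucuronate pathway, had the smallest SD relative to its mean of the 4 members over the libraries of each genotype, 10.3% in Siah1a-/- and 12.96% in wild type. Within the groups of 2 this did not always hold: the SD was 14.5% of the mean in ACTH-treated Siah1a-/- glands, against 9.62% for Akr1b8, and 15.1% in untreated wild-type glands, against 1.59% for Akr1b8. It stood at 499 CPM (labelled female) and 613 CPM (labelled male) in the ACTH-treated and 632 and 609 CPM in the untreated Siah1a-/- libraries. In wild type it stood at 577 CPM (labelled female) and 614 CPM (labelled male) after ACTH and at 618 and 766 CPM without it. The highest of these belongs to the male-labelled untreated wild-type library, which holds kidney transcripts, and their part in that value was not tested. The means were 588 ± 60.4 CPM in Siah1a-/- and 644 ± 83.4 CPM in wild type (SD, n = 4 each), and the genotypes overlapped, with a log2 fold change of -0.13 (SE 0.13). The ACTH-treated and untreated libraries averaged 576 ± 54.1 and 656 ± 73.7 CPM, a log2 fold change of -0.19 (SE 0.13, edgeR, adjusted p = 0.882). Over the 4 Siah1a-/- glands Akr1b7 had an SD of 43.1% of its mean.

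Per length of transcript the order of the members was the same in every library. The deposited RPKM values (reads scaled by transcript length and library size) placed Akr1b7 first, then Akr1a1, Akr1b8 and Akr1b3, in 8 of 8 libraries. Over the 8 libraries Akr1b7 averaged 8214 RPKM (2950 to 18231), Akr1a1 369 RPKM (301 to 486), Akr1b8 103 RPKM (62.0 to 142) and Akr1b3 18.6 RPKM (11.6 to 23.6). No range of RPKM overlapped that of its neighbour in this order. Among all genes, Akr1b7 had the highest RPKM in 5 libraries, the 4 of Siah1a-/- and the male-labelled untreated wild-type library. The level of Akr1b7 was 22.9 to 51.0 times that of Akr1a1 in Siah1a-/- libraries and 9.44 to 13.1 times in wild-type libraries, on the RPKM scale. It was 331 to 1001 times that of Akr1b3 in Siah1a-/- libraries and 169 to 370 times in wild-type libraries. Of the estimated counts of all 4 members, Akr1b7 took 93.8% to 97.0% in Siah1a-/- libraries and 87.2% to 90.6% in wild-type libraries.

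Akr1b10, the nearest gene upstream of Akr1b7 and its closest relative in coding sequence, did not lie higher in Siah1a-/- glands. Its level was 115 ± 14.3 CPM in Siah1a-/- and 126 ± 13.8 CPM in wild type (SD, n = 4 each), and the log2 fold change was -0.14 (SE 0.15, edgeR, adjusted p = 0.759). On the RPKM scale it averaged 76.0 RPKM (61.6 to 90.2) over the 8 libraries, and Akr1b8 lay above it in 6 of them. Bpgm, the gene of bisphosphoglycerate mutase annotated beyond Akr1b7, stood at 27.1 ± 9.18 CPM in Siah1a-/- and 32.1 ± 2.64 CPM in wild type (log2 fold change -0.27, SE 0.27, edgeR, adjusted p = 0.730).

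The other aldo-keto reductases mostly had lower mean levels in Siah1a-/- glands, and none passed the test between the genotypes. Of 16 listed genes 14 could be tested, and in edgeR 0 passed between the genotypes, with 7 at an unadjusted p under 0.05, where 0.026% and 13.4% of all 15361 genes did so. Of the 14, 1 had a higher and 13 had a lower fitted level in Siah1a-/-, with a median log2 fold change of -1.50 against -0.04 for all genes tested. Without the wild-type libraries that hold kidney and liver transcripts, 13 were tested and the median was -0.64 (-0.09 for all genes), with 1 positive and 12 negative. DESeq2 called 4 of the 14 lower (Akr1c12, Akr1c18, Akr1c19 and Akr1d1) and limma-voom 1 (Akr1c6), where DESeq2 called 6.07% and limma-voom 0.703% of all genes. The Akr1c18 gene, which encodes the 20α-hydroxysteroid dehydrogenase of the X-zone, was the most abundant. It held 134 CPM to 7186 CPM in Siah1a-/- libraries and 3266 CPM to 9273 CPM in wild-type libraries, with means of 2267 ± 3304 and 6325 ± 2458 CPM (log2 fold change -2.73, SE 0.66, edgeR, adjusted p = 0.165). Akr1d1, the steroid 5β-reductase, averaged 68.9 ± 73.4 CPM in Siah1a-/- and 241 ± 127 CPM in wild type (log2 fold change -2.14, SE 0.59, edgeR, adjusted p = 0.198). Its highest value, 397 CPM, was in the wild-type library that holds liver transcripts, and the remaining wild-type libraries lay at 117 to 288 CPM. Akr1cl averaged 1256 ± 871 CPM in Siah1a-/- and 1695 ± 586 CPM in wild type (log2 fold change -0.60, SE 0.22, edgeR, adjusted p = 0.293).

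Several of these relatives were found mainly in the 2 wild-type libraries that stand apart. Akr1c6, Akr1c14 and Akr1c20 stood at 431, 173 and 135 CPM in the female-labelled ACTH-treated wild-type library, which holds liver transcripts, and at 6.66 CPM or less in each of the other 7 libraries. Akr1c12 stood at 18.9 CPM in that library and at 8.35 CPM in the male-labelled untreated wild-type library, and at 0.975 CPM or less elsewhere. Akr1c19 stood at 7.56 and 9.17 CPM in these 2 libraries and was listed at 0 in the other 6.

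**Figure D3:**
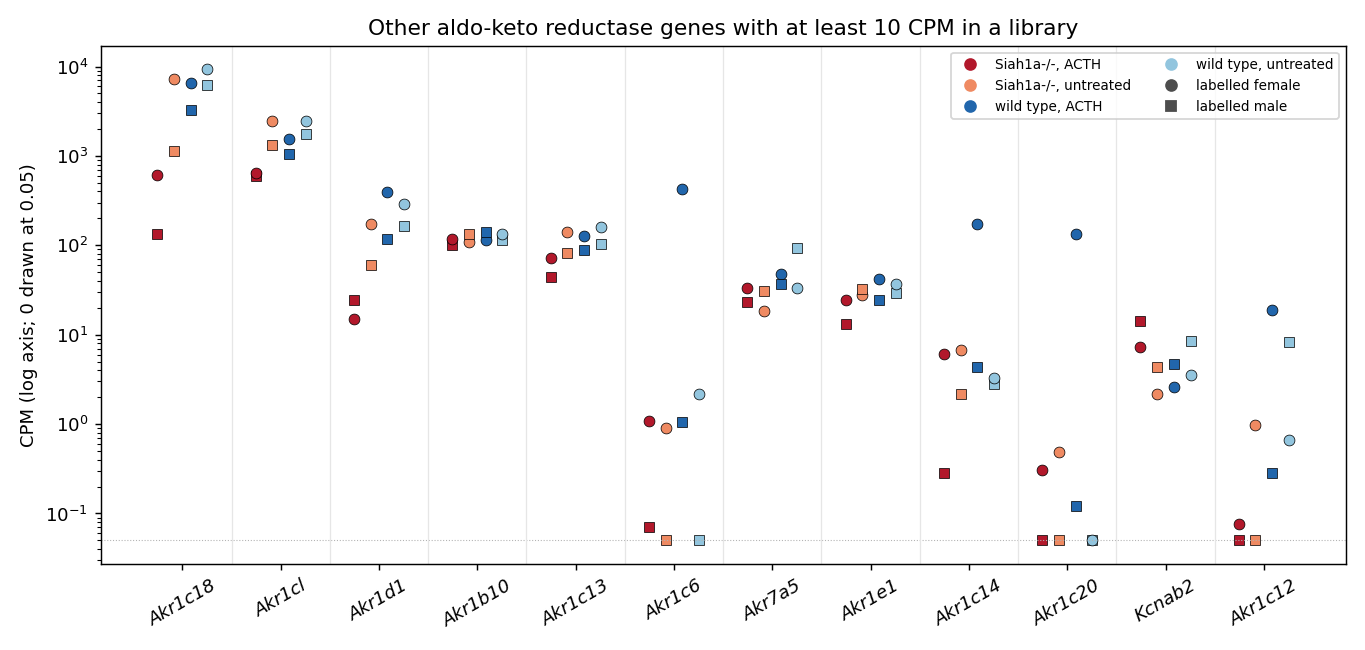
Scaled CPM of the other aldo-keto reductase genes with at least 10 CPM in a library, 1 point per library on a log axis, where values of 0 are drawn on the dotted line (0.05 CPM), with colours for the groups and circles or squares for the female or male label. Akr1c18 is at 134 to 7186 CPM in Siah1a-/- and 3266 to 9273 CPM in wild-type libraries, and Akr1c6, Akr1c14 and Akr1c20 are high only in the female-labelled ACTH-treated wild-type library.

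The pathways that make or share the substrates of these enzymes were read from 7 further lists. Together with the other aldo-keto reductases they held 106 tested genes, each counted once. Of these, edgeR called 0 in the genotype, ACTH, interaction and sex-label comparisons. In that order, 35, 20, 10 and 11 of the 106 had an unadjusted p under 0.05. Of all 15361 genes, 13.4%, 6.11%, 1.84% and 3.11% did so. DESeq2 called 22, 5, 0 and 2 of the 106, where it called 6.07%, 0.801%, 0.0521% and 0.137% of all 15361 genes in the same order of comparisons. Limma-voom called 4, 0, 0 and 0 of the 106, where it called 0.703%, 0.0195%, 0% and 0% of all genes. The 5 genes that DESeq2 called for ACTH were Ptgs2, Ptger2, Slc23a2 and Slc7a11, which were higher, and Akr1cl, which was lower. The median genotype log2 fold change of the 106 was -0.39, against -0.04 for all genes tested. Without the wild-type libraries that hold kidney and liver transcripts, it was -0.22 over 104 genes, against -0.09 for all genes tested. On the source of isocaproaldehyde, 0 of 6 genes passed between the genotypes, with 1 at an unadjusted p under 0.05 and a median log2 fold change of 0.05. Cyp11a1, the side-chain cleavage enzyme, averaged 4396 ± 474 CPM in Siah1a-/- and 5384 ± 1236 CPM in wild type (log2 fold change -0.29, SE 0.19, edgeR, adjusted p = 0.558). Star, which brings cholesterol to that enzyme, averaged 15566 ± 2547 CPM in Siah1a-/- and 14528 ± 3540 CPM in wild type (0.10, SE 0.22, adjusted p = 0.886). Fdx1, the ferredoxin that passes electrons to Cyp11a1, was named after its values were seen. Its level was higher in every Siah1a-/- library (2775 to 4725 CPM) than in any wild-type library (1644 to 1987 CPM). Of all 15361 genes tested, 4.21% lay higher in this way. Fdx1 averaged 3759 ± 891 CPM in Siah1a-/- and 1848 ± 153 CPM in wild type (0.99, SE 0.17, edgeR, adjusted p = 0.0997), and DESeq2 and limma-voom called it. The genotypes overlapped for Cyp11a1 and Star.

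Other enzymes that clear aldehydes and carbonyls numbered 20, of which 0 passed between the genotypes, with a median log2 fold change of -0.47. Of the 20, 9 had an unadjusted p under 0.05 in edgeR, where 13.4% of all 15361 genes did. Without the wild-type libraries that hold kidney and liver transcripts, the median was -0.32, against -0.09 for all genes tested. DESeq2 called 8 of the 20, 1 higher and 7 lower, and limma-voom 1, where these tools called 6.07% and 0.703% of all genes. Aldh1a1, a retinal and aldehyde dehydrogenase, averaged 35.6 ± 22.9 CPM in Siah1a-/- and 182 ± 75.2 CPM in wild type (log2 fold change -2.43, SE 0.29, edgeR, adjusted p = 0.0643) and was called by both other tools. Aldh4a1, a mitochondrial dehydrogenase of proline breakdown, averaged 43.5 ± 25.6 CPM in Siah1a-/- and 248 ± 106 CPM in wild type (-2.76, SE 0.47, adjusted p = 0.0997) and was called by DESeq2. Its highest wild-type values were in the libraries that hold kidney (351 CPM) and liver transcripts (326 CPM), against 181 and 135 CPM in the remaining ones. Adh1, an alcohol dehydrogenase, averaged 4663 ± 1094 CPM in Siah1a-/- and 3794 ± 868 CPM in wild type (log2 fold change 0.30, SE 0.23, edgeR, adjusted p = 0.625). The mitochondrial aldehyde dehydrogenase Aldh2 averaged 722 ± 92.4 CPM in Siah1a-/- and 857 ± 127 CPM in wild type (-0.24, SE 0.15, adjusted p = 0.546). The prostaglandin list had 21 tested genes with a median of -0.11, and its most abundant, Ptges3, averaged 336 ± 47.6 CPM in Siah1a-/- and 267 ± 31.4 CPM in wild type (0.33, SE 0.16, adjusted p = 0.418). The polyol pathway and osmolyte list of Akr1b3 had 8 tested genes with a median of -0.26, and the taurine transporter Slc6a6 averaged 363 ± 89.5 CPM in Siah1a-/- and 502 ± 135 CPM in wild type (-0.46, SE 0.15, adjusted p = 0.244). The glucuronate and ascorbate list of Akr1a1 had 10 tested genes with a median of -2.18, which was -0.17 without the 2 wild-type libraries that hold kidney and liver transcripts. Its most abundant gene was Slc23a2, a sodium-dependent ascorbate transporter, at 272 ± 130 CPM in Siah1a-/- and 255 ± 141 CPM in wild type (0.06, SE 0.24, adjusted p = 0.946). Slc23a2 averaged 362 ± 94.6 CPM in ACTH-treated and 165 ± 44.4 CPM in untreated libraries (log2 fold change 1.10, SE 0.24, edgeR, adjusted p = 0.627).

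Among 14 tested targets of the oxidative stress factor NRF2, 0 passed between the genotypes and the median was -0.30. Me1, the cytosolic malic enzyme that makes NADPH, averaged 2483 ± 738 CPM in Siah1a-/- and 3514 ± 232 CPM in wild type (log2 fold change -0.55, SE 0.20, edgeR, adjusted p = 0.301). Of 13 genes of factors described at the Akr1b7 promoter, 0 passed and the median was -0.33. Nr5a1, which encodes steroidogenic factor 1, averaged 517 ± 23.9 CPM in Siah1a-/- and 494 ± 87.8 CPM in wild type (0.07, SE 0.16, adjusted p = 0.899). Nfib, which encodes a nuclear factor I protein, averaged 298 ± 72.3 CPM in Siah1a-/- and 294 ± 19.2 CPM in wild type (-0.01, SE 0.17, adjusted p = 0.985). Without the 2 wild-type libraries that hold kidney and liver transcripts, the median log2 fold change was -0.18 for the 6 genes of side-chain cleavage, against 0.05 with them, -0.14 for the polyol, -0.19 for the NRF2 and -0.13 for the promoter factor list. The other 3 nuclear factor I genes of this list had lower means in Siah1a-/- and did not pass in edgeR. Nfia averaged 216 ± 51.8 CPM in Siah1a-/- and 280 ± 20.2 CPM in wild type (edgeR, adjusted p = 0.461), Nfic 69.95 ± 15.0 and 104 ± 11.9 CPM (adjusted p = 0.216), and Nfix 25.2 ± 6.65 and 43.3 ± 7.52 CPM (adjusted p = 0.157), in the same order of genotypes. DESeq2 called Nfix lower.

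Summed levels of cell type markers differed between libraries beside Akr1b7, and their ranges overlapped between the genotypes. The summed level of 8 cortex markers was 42070 to 59441 CPM in Siah1a-/- and 28377 to 47636 CPM in wild type. Akr1b7 amounted to 25.4% to 46.4% of these markers in Siah1a-/- libraries and to 13.2% to 31.2% in wild-type libraries, with means of 33.9 ± 10.1% and 17.9 ± 8.83% (SD, n = 4 each), a ratio added after the values were seen. On this scale the genotypes overlapped through the male-labelled untreated wild-type library, at 31.2%, and the other 3 wild-type libraries lay at 13.2% to 13.8%. The 4 X-zone markers summed to 940 to 8917 CPM in Siah1a-/- and 7375 to 14934 CPM in wild type, and 1 of them, Pik3c2g, was at 0 in the male-labelled ACTH-treated Siah1a-/- library. The 6 medulla markers summed to 1804 to 7405 CPM in Siah1a-/- and 1999 to 4006 CPM in wild type. The 6 adipocyte markers, of a tissue that also expresses Akr1b7 in mice, summed to 304 to 1418 CPM in Siah1a-/- and 474 to 1383 CPM in wild type. The library with the highest Akr1b7 level had the lowest adipocyte sum, with 2 of the 6 markers at 0. The part of cortex, X-zone and medulla cells in the Akr1b7 levels was not tested.

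The genes whose pattern over the 8 libraries was most like that of Akr1b7 were Gm10789, Fos, AW551984, Bex2 and S100a6. Likeness was the root mean square difference of log2 CPM, centred on each gene's mean, among 9988 genes with a mean of at least 10 CPM. The differences were 0.24 for Gm10789, 0.29 for Fos, which encodes a subunit of the AP-1 transcription factor, 0.33 for AW551984, 0.35 for Bex2 and 0.35 for S100a6, a calcium-binding protein, against a median of 0.89 over all genes compared. Fos held 28.8 to 74.1 CPM in Siah1a-/- libraries and 9.63 to 22.5 CPM in wild-type libraries. Fos was picked for its likeness to Akr1b7, so this difference between the genotypes is built into the choice and is no separate result. Of all 15361 genes tested, 4.21% lay higher in every Siah1a-/- library than in any wild-type library. Among the relatives, Akr1b8 was at 0.61 (rank 394 of 9988), Akr1b3 at 0.76 (rank 2021) and Akr1a1 at 0.84 (rank 3722). Akr1b10 was at 0.91 (rank 5286), so on this measure the nearest gene in the genome and in sequence was farther from the pattern of Akr1b7 than the median gene. The measure is not scaled to each gene's spread, so a gene that hardly varies also lies far from Akr1b7. All these values share the same 8 libraries and their scaling.

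**Figure D4:**
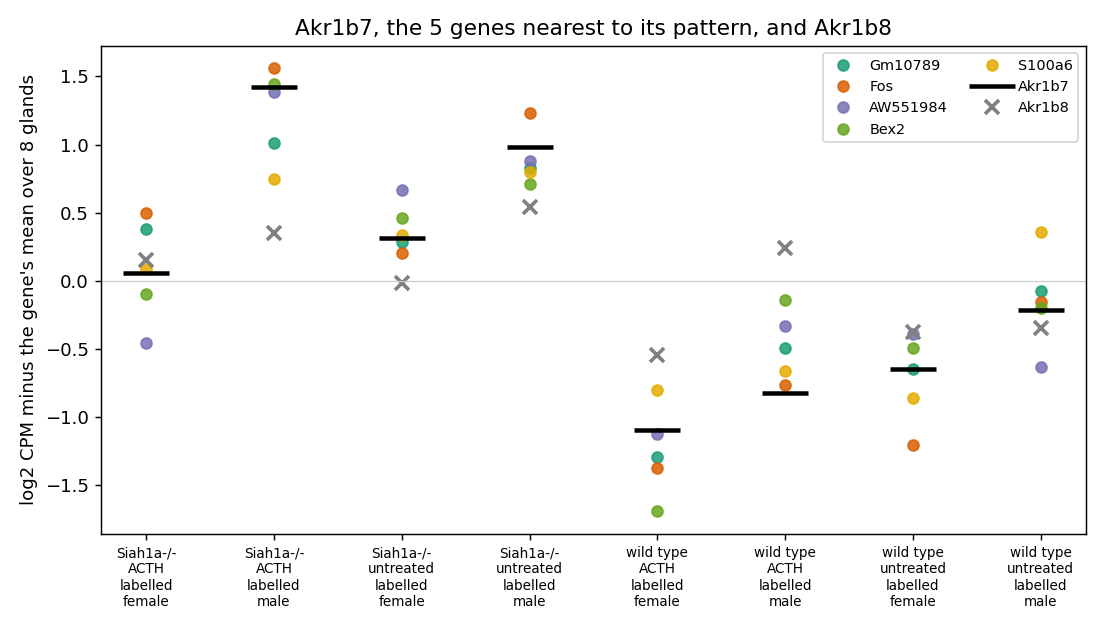
Log2 CPM centred on each gene's mean over the 8 libraries (vertical axis) for Akr1b7 (black bars), the 5 genes most like it (filled points) and Akr1b8 (crosses), with the libraries ordered by group along the horizontal axis. The 5 genes follow Akr1b7 within a root mean square difference of 0.24 to 0.35, and Akr1b8 is at 0.61.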

How the data were processed

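RNA of 8 adrenal glands was sequenced as single reads of 75 bases from directional libraries, per the labels' protocols. The submitters' processing notes name the build mm10 and the tools Bowtie2 2.2.5.0, TopHat2 2.0.13, FastQC 0.11 and Partek 6.6. For 28678 RefSeq transcripts the authors deposited an estimated count and an RPKM value per library, per the file headers. The sources used here do not say how reads with several matches were handled.

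Estimated counts were summed per symbol and rounded. RPKM values were summed per symbol and used only to compare genes. edgeR 4.0.16 (R 4.3.3) filtered genes (filterByExpr, minimum count 10, leaving 15361), scaled them by TMM (factors 0.888 to 1.065) and fitted genotype, agent and sex label. Quasi-likelihood F-tests were adjusted by Benjamini-Hochberg, with a call at an adjusted p under 0.05. SEs are the log2 fold change divided by the root of F. Alternatives were RLE factors, no filter, DESeq2 1.42.0, limma-voom (limma 3.58.1), no sex covariate, Akr1b7 left out of totals, 2 wild-type libraries left out, and single libraries left out. P-values measure the spread between animals, 2 per group.

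The members, the gene lists and the marker lists were chosen with earlier results of these data known. The genes named were the 4 members, up to 2 of each list by mean CPM where none was called, any other aldo-keto reductase, and the 5 genes most like Akr1b7 (log2 CPM, prior count 2). Bpgm, Fdx1, Aldh1a1, Aldh4a1, Nfia, Nfic, Nfix, Ptgs2, Ptger2, Slc7a11, and the markers Xist, Ddx3y and Pik3c2g, were named after their values were seen. Floors were not needed, as no member was at 0.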

Additional observations from a re-analysis of the deposited data

Results flagged for a closer look

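Each member was checked for a library far from the other 3 of its treatment or genotype, in 16 groups of 4 libraries, where chance flags about 1 in 20 groups, and 2 stood out. Among the untreated libraries, Akr1b3 was highest in the Siah1a-/- library labelled male, at 40.0 CPM, and the other 3 lay between 25.7 and 27.3 CPM. Among the untreated libraries, Akr1a1 was highest in the male-labelled untreated wild-type library, at 766 CPM, and the other 3 lay between 609 and 632 CPM. The second of these libraries holds kidney markers with a summed level of 1798 CPM, and their part in the value was not tested.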

How the results depend on the processing

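The log2 fold changes of the 4 members between the genotypes kept their direction under the 7 other settings run (1.39 to 1.48 for Akr1b7, 0.32 to 0.51 for Akr1b8, 0.02 to 0.24 for Akr1b3, -0.13 to -0.08 for Akr1a1), and so did their ACTH values (-0.21 to -0.16 for Akr1b7). Counts of called genes moved more. For the genotype they were 41 without a filter, 932 in DESeq2, 108 in limma-voom and 1 without the sex covariate, against 4 as reported, and 0 to 253 with single libraries left out. For ACTH they were 8, 123 and 3 in that order of tools, 0 without the sex covariate and 0 without the 2 wild-type libraries, against 3, and 0 to 23 with single libraries left out. For the interaction DESeq2 gave 8 and leaving out the 2 libraries 2, against 0, and single libraries gave 0 to 11. For the sex label they were 7 without a filter, 21 in DESeq2, 0 in limma-voom and 7 without the 2 libraries, against 4, and 1 to 25 with single libraries left out. Interaction values near 0 changed sign: Akr1b3 was 0.015 with RLE factors and 0.015 in DESeq2 against -0.02, and Akr1a1 was -0.039 without the 2 libraries against 0.04. With single libraries left out, interaction values ran from -0.41 to 0.35 for Akr1b3, -0.11 to 0.18 for Akr1a1, -0.49 to 0.040 for Akr1b8 and 0.14 to 1.05 for Akr1b7. ACTH values ran from -0.077 to 0.21 for Akr1b3, -0.033 to 0.18 for Akr1b8 and -0.46 to -0.03 for Akr1b7, and the ACTH difference of the Akr1b7 share from -0.545 to 0.218 percentage points. The cause of these changes was not tested. No paired analysis was possible because the labels give no replicate numbers, only an animal number for each gland; the sex label, held once per level in each group, was a term of the fits, and its removal is among the settings above. Each group held 2 animals, and 2 of the 4 wild-type libraries held transcripts of other tissues. The counting intervals of the Akr1b7 share were narrower than the spread between animals.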
